A study of Homo sapiens with 16 samples.

Results

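The IFIT genes, RSAD2 and CMPK2 are 6 human genes of the antiviral response, measured here as sequencing reads in U251 and U343, both established glioblastoma cell lines. IFIT1, IFIT2, IFIT3, IFIT5, RSAD2 and CMPK2 were taken by symbol from the gene column of the deposited tables, and each was found once among the 20314 genes of the U251 tables and the 20626 genes of the U343 tables. Cells of either line were transfected with a mimic of the microRNA miR-137 or with a control mimic at 25 nM and collected after 48 h, so the controls carried a transfected mimic as well. RNASeq libraries hold total RNA, and RIPSeq libraries hold the RNA that came down with antibodies against the poly(A)-binding protein PABP, both after removal of ribosomal RNA. Each of the 8 combinations of line, assay and mimic has 2 libraries, 16 in all. The cDNA of U251 was primed with random hexamers and that of U343 was made with another kit, so that cell line and library kit cannot be told apart. Nothing in the labels says whether replicates were separate cultures, and p-values measure only the spread between these libraries. The 6 genes were selected on the change between mimics, with more reads after miR-137, and their values in that contrast are therefore given as a description, without a test.

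Type I and type III interferons bind their receptors at the cell surface, and the kinases JAK1 and TYK2 then activate a transcription factor complex that contains IRF9 and binds interferon-stimulated response elements in the promoters of many genes. RNA sensors such as DDX58 (RIG-I) and IFIH1 (MDA5) start interferon production and are themselves products of interferon-stimulated genes. The IFIT proteins are RNA-binding proteins built of tetratricopeptide repeats that hold back the translation of foreign RNA. RSAD2 encodes viperin, a radical SAM enzyme that makes a chain-terminating nucleotide from CTP, and CMPK2 encodes a mitochondrial nucleoside monophosphate kinase.

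In the deposited hg18 coordinates the IFIT genes lie together on chromosome 10. IFIT2 spans chr10:91051686-91059013, IFIT3 chr10:91077582-91090704, IFIT1 chr10:91142302-91153724 and IFIT5 chr10:91164305-91170738, and IFIT1B, a related gene, lies between IFIT3 and IFIT1 at chr10:91127793-91134942. RSAD2 (chr2:6935247-6955814) and CMPK2 (chr2:6905902-6923387, minus strand) are neighbours on chromosome 2. None of the 6 intervals overlapped another listed gene. Each interval runs from the first to the last base of a gene, introns included, so no transcript length was at hand and levels were compared between libraries and not between genes.

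The promoters are shown because the 6 genes moved together in most libraries, and the response element named above is a short run of letters that can be looked for in them. RefSeq promoter windows of GRCh38.p14, each from 250 bases before to 50 bases after an annotated start, were at hand for IFIT1, IFIT3, IFIT5, RSAD2 and CMPK2 and not for IFIT2, and with alternative starts they came to 9 windows. GAAA repeats were searched in 2 spacings on both strands, GAAANNGAAA, which is the core of the interferon-stimulated response element, and GAAANGAAA, which was chosen after the windows had been read. GAAANNGAAA or its reverse complement was present in 3.57% of all 35116 windows and GAAANGAAA in 3.12%, and 6.40% of windows held either. Of the 9 windows, 7 held at least 1 of them, and each of the 5 genes had such a window, beside 7.83% of all genes. GAAANNGAAA alone was found for IFIT1, IFIT3, IFIT5 and RSAD2, beside 4.38% of all genes, and in no window of CMPK2. The count of either spacing is a description only, since these windows were read before GAAANGAAA was chosen. Not every window is printed. Capitals mark the matches below, and matches that overlap are merged.
IFIT1, chr10:89392373-89392672, plus strand: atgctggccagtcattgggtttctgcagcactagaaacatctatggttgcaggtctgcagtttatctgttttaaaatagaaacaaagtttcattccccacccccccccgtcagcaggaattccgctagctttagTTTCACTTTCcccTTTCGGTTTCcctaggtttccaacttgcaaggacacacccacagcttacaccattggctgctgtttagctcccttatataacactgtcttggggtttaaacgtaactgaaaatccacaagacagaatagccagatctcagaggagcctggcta
IFIT3, chr10:89332279-89332578, plus strand: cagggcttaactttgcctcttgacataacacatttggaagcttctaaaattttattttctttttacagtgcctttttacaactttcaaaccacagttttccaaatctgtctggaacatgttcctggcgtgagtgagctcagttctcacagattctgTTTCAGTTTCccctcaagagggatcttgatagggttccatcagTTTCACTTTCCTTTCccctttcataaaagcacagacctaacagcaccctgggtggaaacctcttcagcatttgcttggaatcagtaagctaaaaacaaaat
IFIT5, chr10:89414318-89414617, plus strand: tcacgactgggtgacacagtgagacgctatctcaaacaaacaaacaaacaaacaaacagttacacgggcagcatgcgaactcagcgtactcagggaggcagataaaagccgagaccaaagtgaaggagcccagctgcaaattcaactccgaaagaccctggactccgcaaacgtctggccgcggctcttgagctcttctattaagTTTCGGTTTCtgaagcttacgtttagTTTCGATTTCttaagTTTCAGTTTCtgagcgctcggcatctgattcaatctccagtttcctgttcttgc
RSAD2, chr2:6877527-6877826, plus strand: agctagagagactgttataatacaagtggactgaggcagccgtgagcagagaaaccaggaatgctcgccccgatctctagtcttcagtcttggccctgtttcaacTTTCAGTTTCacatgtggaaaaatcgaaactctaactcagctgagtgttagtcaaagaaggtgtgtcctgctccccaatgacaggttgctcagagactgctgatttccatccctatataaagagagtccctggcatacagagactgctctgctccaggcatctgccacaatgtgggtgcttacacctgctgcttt
RSAD2, chr2:6865635-6865934, plus strand: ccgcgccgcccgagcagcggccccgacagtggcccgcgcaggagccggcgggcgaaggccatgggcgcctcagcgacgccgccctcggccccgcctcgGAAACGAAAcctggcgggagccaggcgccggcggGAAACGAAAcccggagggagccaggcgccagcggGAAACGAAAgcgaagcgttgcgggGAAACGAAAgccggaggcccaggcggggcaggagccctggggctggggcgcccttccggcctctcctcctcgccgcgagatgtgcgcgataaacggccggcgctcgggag
CMPK2, chr2:6865770-6866069, minus strand: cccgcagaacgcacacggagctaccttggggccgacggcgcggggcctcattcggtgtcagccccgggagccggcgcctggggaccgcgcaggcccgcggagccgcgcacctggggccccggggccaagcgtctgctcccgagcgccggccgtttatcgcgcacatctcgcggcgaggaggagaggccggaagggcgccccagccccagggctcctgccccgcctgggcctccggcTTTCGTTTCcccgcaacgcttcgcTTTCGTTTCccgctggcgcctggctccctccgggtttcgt
IFIT1B, chr10:89377806-89378105, plus strand: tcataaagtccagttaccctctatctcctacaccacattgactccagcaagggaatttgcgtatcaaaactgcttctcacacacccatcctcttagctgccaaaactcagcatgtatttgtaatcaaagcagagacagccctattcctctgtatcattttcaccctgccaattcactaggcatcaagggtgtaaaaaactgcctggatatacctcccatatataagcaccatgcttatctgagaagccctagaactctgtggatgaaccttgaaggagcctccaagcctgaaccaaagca

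IFIT1 held 2 matches to GAAANNGAAA, beginning 116 and 103 bases before the start, and IFIT5 held 3. The window of RSAD2 at chr2:6865635 held 4 matches to GAAANGAAA and none to the wider spacing. It shares 165 bases with the window of CMPK2, which reads the other strand and held 2 of them, so these are the same bases and not independent matches. The window of IFIT1B, printed for comparison, held neither. A match is a description of letters and says nothing of binding in these cells. The transfected microRNA was a mimic of miR-137, whose mature form hsa-miR-137-3p is listed by RefSeq as below, with the seed, bases 2 to 8, in capitals.
hsa-miR-137-3p: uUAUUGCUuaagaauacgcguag

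A few libraries stand apart from their group. The library labelled U343 RNASeq miR-137 replicate 1 had the 6 genes near or below their control levels, whereas replicate 2 of the same group and both U343 RIPSeq miR-137 libraries had them far above the controls. CDK6, a known target of miR-137, was low in both: 83.0 and 89.5 CPM (reads per 1000000 counted reads, scaled by TMM factors) in the miR-137 replicates 1 and 2 of U343 RNASeq against 539 and 635 in the controls. Results on U343 total RNA are therefore given with and without replicate 1. Where it is left out, the lone miR-137 library is assumed to vary like the other groups. Replicate 1 was set apart on the values of these same genes, so the estimates without it are a description only. In U251 RIPSeq the 2 control libraries differed from each other, with CDK6 at 288 and 975 CPM and IFIT5 at 16.4 and 39.4. Depth ran from 10156675 to 45134766 counted reads per library. The glioma marker vimentin (VIM) was at 3105 CPM or more in every library, whereas 6 leukocyte markers, a cell type that also expresses these genes, summed to at most 3.56, with PTPRC at 0.667 or less. Of the other glioma markers listed, NES, CD44 and SOX2 were at 113, 772 and 65.9 CPM or more in every library. GFAP was low in U251 (3.11 to 31.6 CPM) and high in U343 (3254 to 8129). S100B was low in both, at most 1.71 in U251 and 10.6 in U343. The endothelial markers VWF and CDH5 reached 29.2 and 34.0 in U343, against 1.24 and 0.931 in U251. PECAM1, the other endothelial marker listed, was at most 1.61 in U343 and 0.660 in U251. U343 libraries also held the epithelial markers KRT5 (up to 1436 CPM) and CDH1 (up to 126.9), which were at most 0.582 and 1.13 in U251. EPCAM, the other epithelial marker listed, was near 0 in both lines, at most 0.121 in U343 and 0.197 in U251. The epithelial markers together summed to 892 to 1389 in the U343 RNASeq controls and to 967 to 1517 after miR-137. In U343 RIPSeq the sums were 566 to 708 and 454 to 514 in the same order. The part of these markers in the results was not tested.

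**Figure D1:**
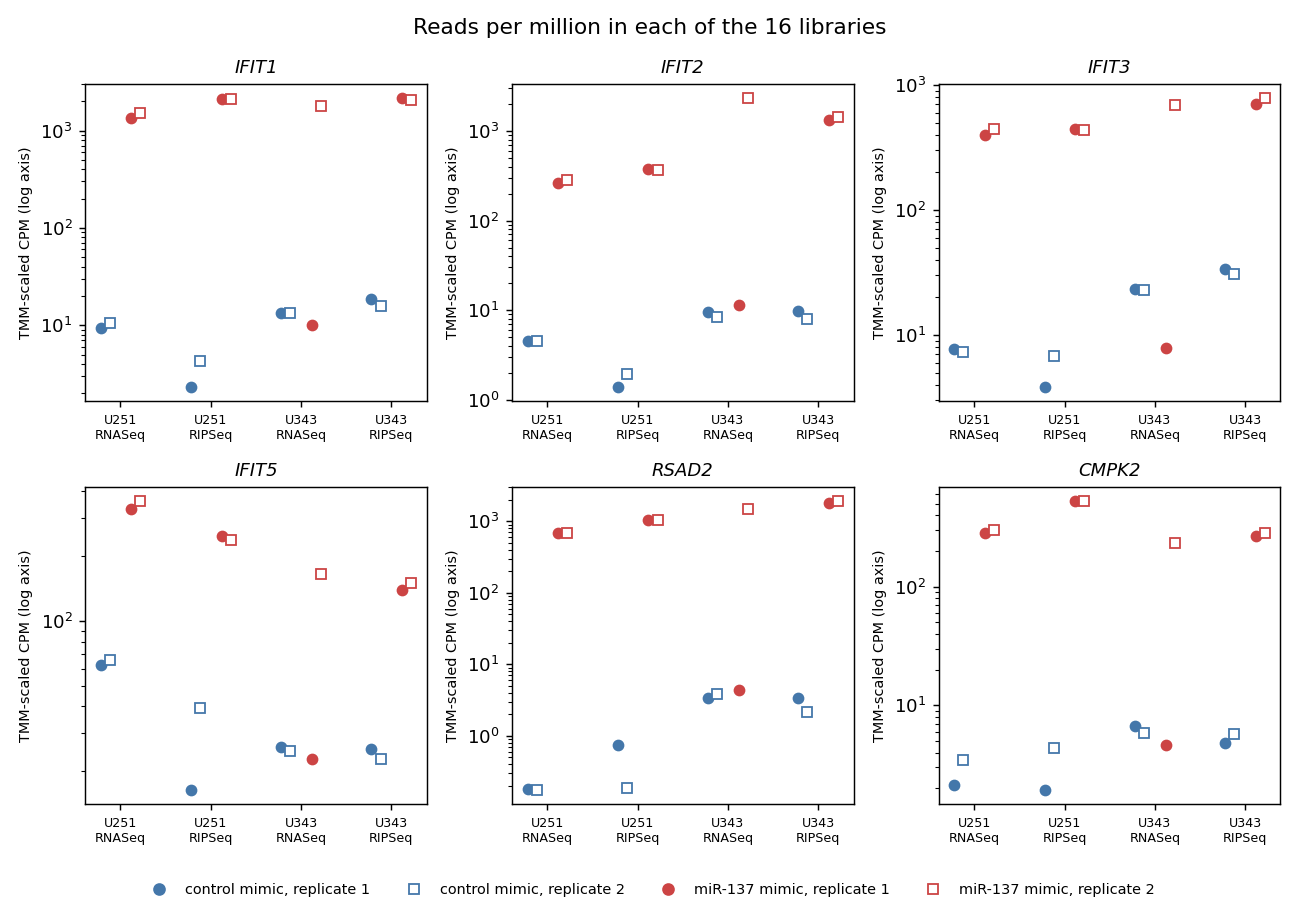
Level of each gene in CPM on a log axis, in each of the 16 libraries. Blue marks the control mimic and red the miR-137 mimic, filled circles replicate 1 and open squares replicate 2. The difference between red and blue points is the contrast that chose the genes, so their distance in U251 and in U343 RIPSeq is a description only. In U343 RNASeq replicate 1 of miR-137 lies among or below the controls for 4 of the 6 genes. It lies just above them for IFIT2 and RSAD2.

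IFIT1 binds RNA whose cap lacks the methyl groups of the cell's own messengers. In U251 RNASeq it stood at 9.41 and 10.6 CPM in the controls and at 1330.1 and 1515 after miR-137. In U251 RIPSeq the controls had 2.33 and 4.29 and the miR-137 libraries 2092 and 2115. This difference lies in the contrast that chose the genes and is a description only. In such bulk RNA, more responding cells and more RNA per cell cannot be told apart. In U343 RNASeq the controls had 13.4 and 13.5, miR-137 replicate 1 had 9.94 and replicate 2 had 1768. In U343 RIPSeq the controls had 18.7 and 15.9 and the miR-137 libraries 2153 and 2058, which is close to the level in U251 RIPSeq. Ranked by group mean, IFIT1 was lowest in the U251 RIPSeq controls (3.31 ± 1.39, SD, n = 2) and highest in the U343 RIPSeq miR-137 libraries (2106 ± 67.3), whose range overlapped that of the U251 RIPSeq miR-137 libraries (2103 ± 15.9).

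IFIT2 forms complexes with IFIT1 and IFIT3. Its controls in U251 RNASeq had 4.52 and 4.59 CPM and the miR-137 libraries 261.5 and 280.4, and in U251 RIPSeq the controls had 1.40 and 1.96 and the miR-137 libraries 377 and 369. In U343 RIPSeq the controls had 9.69 and 8.02 and the miR-137 libraries 1337 and 1423. Both U343 RIPSeq libraries thus stood above all 4 U251 miR-137 libraries. In U343 RNASeq the controls had 9.66 and 8.40, miR-137 replicate 1 had 11.4 and replicate 2 had 2325, the highest of the 16 libraries for IFIT2. The lowest group was that of the U251 RIPSeq controls (mean 1.68), and the U343 controls of the 2 assays overlapped.

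IFIT3 stabilises IFIT1 and strengthens its binding to RNA. It had 7.70 and 7.36 CPM in the U251 RNASeq controls and 395 and 442 after miR-137, and 3.84 and 6.81 against 444 and 433 in U251 RIPSeq. In U343 RIPSeq it had 33.6 and 30.8 in the controls and 706 and 784 after miR-137. The U343 controls stood above the U251 controls in either assay without overlap. Total RNA of U343 had 23.2 and 22.8 in the controls, and miR-137 replicate 1 had 7.81 and replicate 2 had 697, so that replicate 1 was lower than both controls by more than they differed. U343 RIPSeq after miR-137 was the highest group (mean 745) and did not overlap the U251 groups, which overlapped each other after the mimic.

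IFIT5 acts as a single molecule and binds RNA with a terminal phosphate. It changed least of the 6, with 62.6 and 65.9 CPM in the U251 RNASeq controls and 330 and 359 after miR-137, and with 16.4 and 39.4 against 247 and 238 in U251 RIPSeq. Total RNA of U343 had 26.1 and 24.9 in the controls, and miR-137 replicate 1 had 22.7 and replicate 2 had 166. In U343 RIPSeq the controls had 25.3 and 22.9 and the miR-137 libraries 138 and 150.4. By group mean IFIT5 was highest in total RNA of U251 after miR-137, where none of the other 5 genes was, and its lowest 3 groups, all controls, overlapped in their library ranges.

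RSAD2 had few reads in the U251 controls, with 3 and 3 reads in RNASeq and 19 and 5 in RIPSeq. The miR-137 libraries of U251 held 8309 and 8114 reads in RNASeq and 26552 and 27259 in RIPSeq. In CPM this is 0.183 and 0.177 against 692 and 681 in RNASeq, and 0.737 and 0.188 against 1048 and 1029 in RIPSeq. U343 controls already held RSAD2, at 3.43 and 3.86 CPM in RNASeq and 3.42 and 2.19 in RIPSeq, above every U251 control. After miR-137 U343 RIPSeq reached 1774 and 1913, and in U343 RNASeq replicate 1 had 4.41 and replicate 2 had 1482. The 4 control groups did not overlap each other, and after miR-137 U343 RIPSeq (mean 1843) lay above all U251 libraries.

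CMPK2 had 2.14 and 3.47 CPM in the U251 RNASeq controls and 282 and 300.2 after miR-137, and 1.94 and 4.33 against 523 and 524 in U251 RIPSeq. Total RNA of U343 had 6.70 and 5.84 in the controls, and miR-137 replicate 1 had 4.65 and replicate 2 had 231. In U343 RIPSeq the controls had 4.86 and 5.75 and the miR-137 libraries 267 and 284. The U251 RIPSeq miR-137 libraries were the highest of the 8 groups for CMPK2, and the ranges of U343 RIPSeq and U251 RNASeq after the mimic overlapped.

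Together the 6 genes took 0.00839% and 0.00858% of all counted reads in the U251 RNASeq controls and 0.385% and 0.419% after miR-137. In U343 RIPSeq they took 0.00869% and 0.00776% in the controls and 0.565% and 0.632% after miR-137. In U343 RNASeq the controls had 0.00853% and 0.00802%, miR-137 replicate 1 had 0.00605% and replicate 2 had 0.659%. The library labelled miR-137 replicate 1 thus held a smaller share of these genes than any U343 control.

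Fold changes between mimics were estimated with edgeR, a count model across all genes of an experiment, and are given with their standard errors. In U251 RNASeq the log2 fold change was 11.87 ± 0.26 for RSAD2, 7.19 ± 0.19 for IFIT1, 6.73 ± 0.20 for CMPK2, 5.93 ± 0.16 for IFIT2, 5.83 ± 0.16 for IFIT3 and 2.46 ± 0.13 for IFIT5. In U343 RIPSeq the order began with RSAD2 as well, at 9.37 ± 0.23, followed by IFIT2 at 7.30 ± 0.16, IFIT1 at 6.94 ± 0.16, CMPK2 at 5.71 ± 0.12, IFIT3 at 4.55 ± 0.12 and IFIT5 at 2.60 ± 0.10. RSAD2 had the largest and IFIT5 the smallest change in all 4 experiments. The fold of RSAD2 in U251 rests on few control reads and depends on how they are treated. From the summed counts, 6 control reads in RNASeq gave a ratio with an exact (Clopper-Pearson) 95% interval of 1754 to 10406, which covers counting error only.

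In U251 RIPSeq the estimates were 11.01 ± 0.80 for RSAD2, 9.26 ± 0.37 for IFIT1, 7.73 ± 0.30 for IFIT2, 7.34 ± 0.46 for CMPK2, 6.31 ± 0.36 for IFIT3 and 3.08 ± 0.43 for IFIT5. Its 2 controls differed from each other, and RSAD2 was at 12.42 without control replicate 1 and at 10.36 without control replicate 2, while IFIT5 was at 2.65 and 3.79.

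In U343 RNASeq the estimates over 4 libraries were 7.69 ± 2.74 for RSAD2, 7.03 ± 2.51 for IFIT2, 6.07 ± 2.36 for IFIT1, 4.24 ± 1.78 for CMPK2, 3.95 ± 1.93 for IFIT3 and 1.89 ± 0.95 for IFIT5. Without the library labelled miR-137 replicate 1 they were 8.68 ± 0.13, 8.01 ± 0.14, 7.05 ± 0.11, 5.21 ± 0.11, 4.93 ± 0.09 and 2.71 ± 0.08 in the same order. Without replicate 2 instead, the estimate was -0.48 for IFIT1 and -1.61 for IFIT3.

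**Figure D2:**
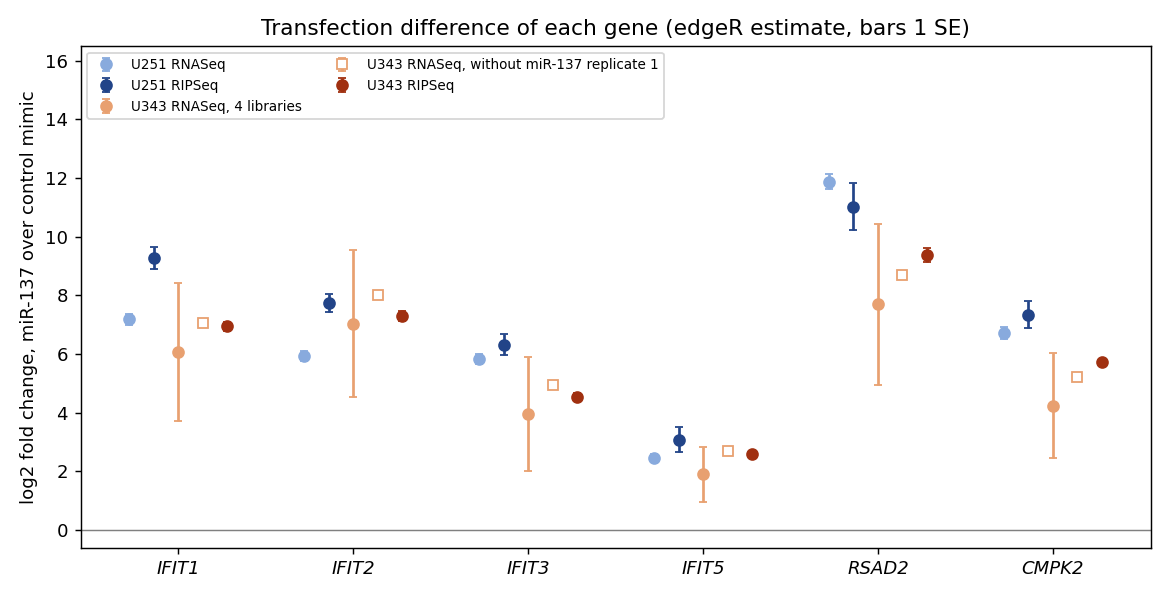
Log2 fold change of the miR-137 mimic over the control mimic for each gene, with bars of 1 standard error from edgeR. Filled circles use all 4 libraries of an experiment, and open squares leave out miR-137 replicate 1 of U343 RNASeq. RSAD2 is highest and IFIT5 lowest in every experiment, and the wide bars of U343 RNASeq, such as 2.74 for RSAD2, shrink to 0.13 without that replicate.

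The rest of the pathway was followed with a list of 44 genes of interferon signalling, ordered by role, of which 43 are in the tables of both lines. Among those with at least 10 reads, 33 of 42 were more than 2-fold above the mean of the controls in U343 RNASeq miR-137 replicate 2, and 34 of 42 in either U343 RIPSeq miR-137 library. In replicate 1 only 5 of 38 were: IRF9, IRF7, MX2, IFI44L and IFITM1. IRF9, the DNA-binding part of that complex, had 10.6 CPM in the control mean, 30.3 in replicate 1 and 192 in replicate 2, and IRF7, which amplifies interferon production, had 6.83, 23.7 and 406.

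**Figure D3:**
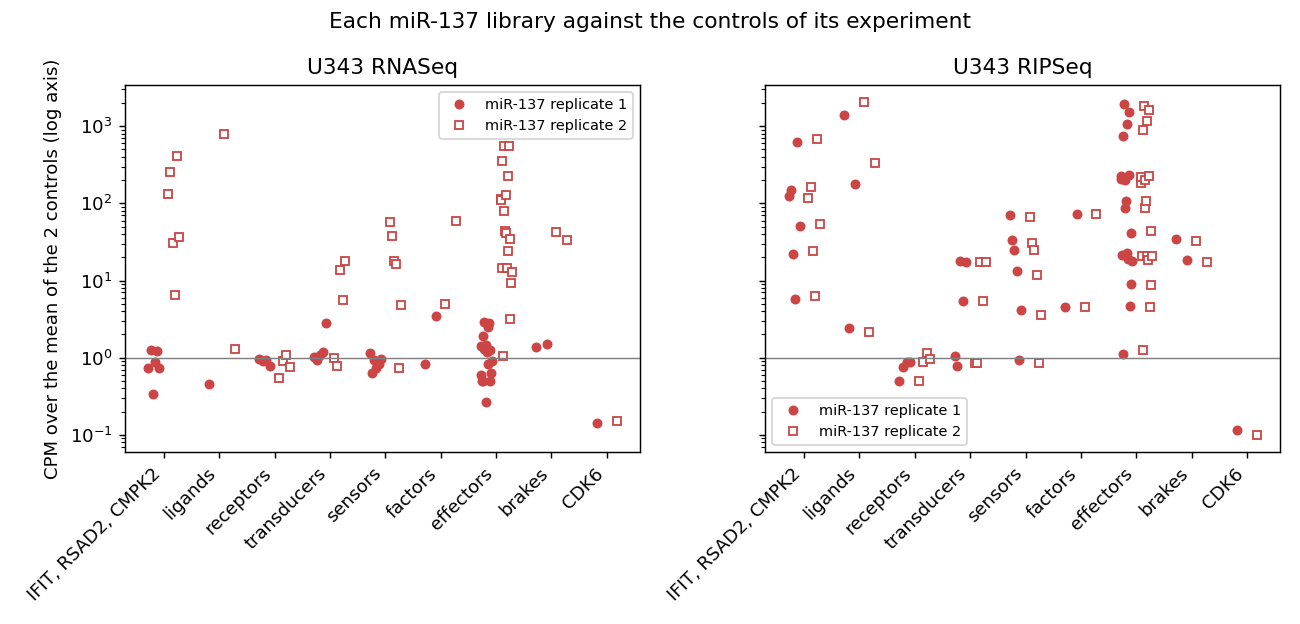
CPM of single genes in each U343 miR-137 library divided by the mean of the 2 controls of the experiment, on a log axis, by role. Filled circles are replicate 1 and open squares replicate 2, and genes with under 10 reads or with no control read are not drawn. In RNASeq the replicate 1 points of the 6 genes lie between 0.339 and 1.27 and those of replicate 2 between 6.50 and 407, and CDK6 is at 0.141 and 0.152 in the 2 replicates, whereas in RIPSeq the replicates lie together.

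IFNB1 and IL29 were near 0 reads in all controls. In U343, IFNB1, which encodes interferon beta, had 1 and 0 reads in the RIPSeq controls and 618 and 919 after miR-137, and IL29, an interferon lambda, had 0 and 0 reads and 721 and 1585. In U343 RNASeq, IFNB1 had 1 read in each control, 1 in miR-137 replicate 1 and 817 in replicate 2. In U251, IFNB1 reached 299 and 276 reads in RIPSeq and 5 and 7 in RNASeq, from controls of 1 and 3 and of 1 and 1. From the summed counts of U343 RIPSeq, IFNB1 was 1667-fold higher (exact 95% interval 299 to 65891, on 1 control read). In the same experiment IL28A was at least 229-fold and IL29 at least 834-fold higher. Both had no control read and were set against 3 counts over the group. Of the 4 receptor genes, none passed as higher in edgeR in any experiment, and IFNAR1, the shared chain of the type I receptor, fell by 0.50 in U251 RNASeq and by 0.99 in U343 RIPSeq on the log2 scale.

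Of the 6 sensors 5 rose in U251 RNASeq and in U343 RIPSeq, 3 in U251 RIPSeq and 0 in U343 RNASeq, with MAVS, the adaptor of the sensors, at -1.09 ± 0.13 in U251 RNASeq and -0.14 ± 0.08 in U343 RIPSeq. Among 18 effectors, 18 rose in U251 RNASeq, 17 in U251 RIPSeq, 17 in U343 RIPSeq and 0 in U343 RNASeq. The largest changes were those of OAS2, which makes the activator of RNase L, at 11.13 ± 0.26 in U251 RNASeq, and of MX2, a dynamin-like restriction factor, at 10.86 ± 0.17 in U343 RIPSeq, and the smallest among those that passed were those of IFI44 at 3.50 ± 0.15 and BST2 at 3.69 ± 0.17 in the former and of BST2 at 2.23 ± 0.10 in the latter. MX1, the relative of MX2 that blocks influenza virus, rose by 6.55 ± 0.18 in U251 RNASeq and had 0.26 ± 0.13 in U343 RIPSeq, where it did not pass (adjusted p = 0.13). Its U343 RIPSeq libraries had 7.66 and 8.67 CPM in the controls and 9.18 and 10.1 after miR-137. The brakes USP18 and SOCS1 rose in both, USP18 by 3.11 ± 0.14 in U251 RNASeq and by 5.08 ± 0.13 in U343 RIPSeq. Over the whole list 31 of 38 tested genes rose in U251 RNASeq, where 28.7% of all tested genes did, and 3 fell, MAVS, IFNAR1 and the kinase JAK1. In U251 RIPSeq 25 of 40 rose, beside 0.944% of all genes, and 0 fell. In U343 RIPSeq 34 of 42 rose, beside 28.5%, and 2 fell, IFNAR1 and the kinase TYK2. The median log2 fold changes of the list were 3.83, 4.66 and 4.44 in the same order, where those of all tested genes were 0.02, -0.02 and 0.00. In U343 RNASeq 0 of 39 passed in edgeR, beside 8.31% of all genes as higher, with a median of 3.09, while 13 had an unadjusted p under 0.05 and DESeq2 called 15 higher and 2 lower. Without the library labelled miR-137 replicate 1 the median of the list was 4.18, on 1 miR-137 library. In U251 RIPSeq 32 of 40 were higher and 6 lower without control replicate 1, beside 32.8% of all genes as higher, and 35 were higher and 4 lower without control replicate 2, beside 40.2%. The list was chosen with results of these data known and is no independent evidence.

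The proportions among the 6 genes also changed. In U251 RNASeq, IFIT5 had 666 and 622 reads for every 100 reads of IFIT1 in the controls and 24.8 and 23.7 after miR-137. In U343 RNASeq it had 195.0 and 185 in the controls, 229 in miR-137 replicate 1 and 9.37 in replicate 2, and in U343 RIPSeq 135 and 144 against 6.42 and 7.31. IFIT5 was thus lower relative to IFIT1 in every library that held the rise. For IFIT2, U251 had 48.1 and 43.3 reads for 100 IFIT1 reads in the RNASeq controls and 19.7 and 18.5 after miR-137, whereas in U343 RNASeq it had 72.3 and 62.3 in the controls, 115 in replicate 1 and 132 in replicate 2. RSAD2 had 25.6 and 28.6 in the U343 RNASeq controls, 44.4 in miR-137 replicate 1 and 83.9 in replicate 2, and CMPK2, its neighbour, had 50.2 and 43.3, 46.8 and 13.1. RSAD2 reads per 100 CMPK2 reads in the RIPSeq miR-137 libraries were 200.5 and 196 in U251 and 665 and 675 in U343. In RNASeq after miR-137 they were 246 and 227 in U251, and 94.8 in replicate 1 and 642 in replicate 2 of U343. These ratios were not tested, and the lines also differ in kit.

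**Figure D4:**
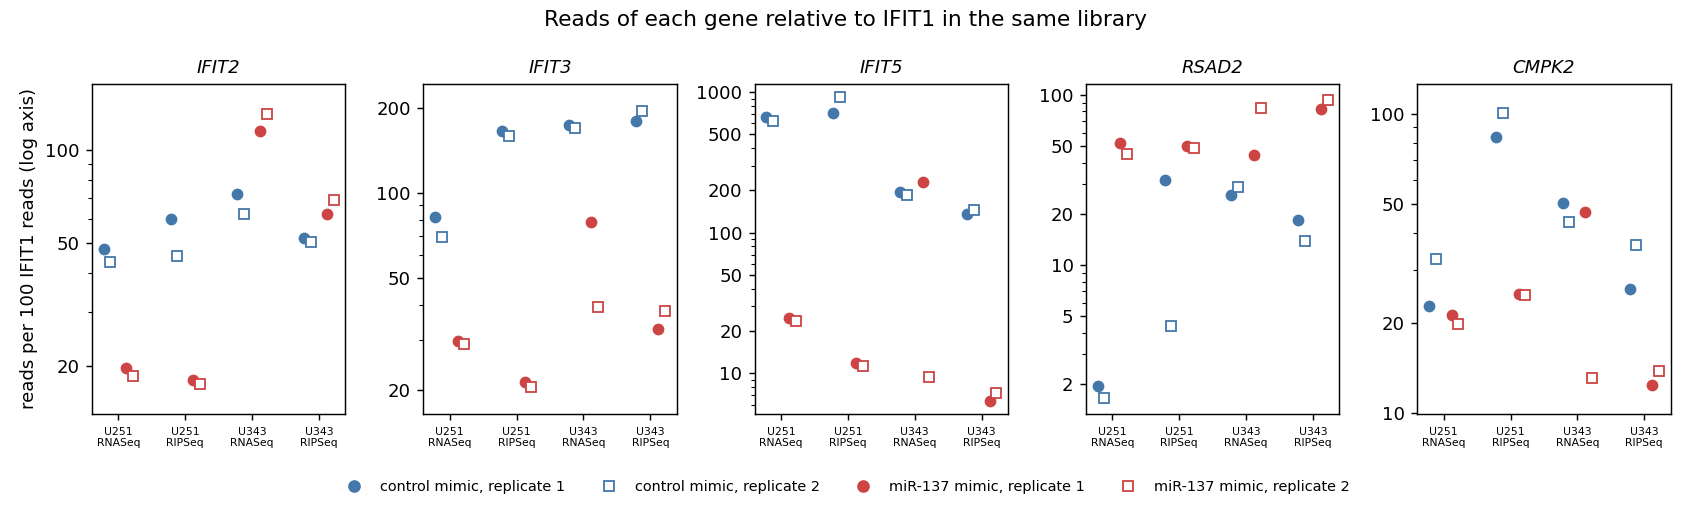
Reads of 5 genes per 100 reads of IFIT1 in the same library, on a log axis, for the 16 libraries. Blue is the control mimic and red the miR-137 mimic, filled circles replicate 1 and open squares replicate 2. IFIT5 goes from 666 and 622 to 24.8 and 23.7 in U251 RNASeq, and in U343 RNASeq replicate 1 of miR-137 has 229 where replicate 2 has 9.37.

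The association with PABP asks whether these messengers were over- or under-represented in the immunoprecipitate relative to total RNA, a contrast that did not choose the genes. In the U251 controls, fitted with all 8 U251 libraries, IFIT1 was lower in PABP-bound RNA by 1.49 ± 0.23 on the log2 scale (adjusted p = 0.0030, edgeR quasi-likelihood test), IFIT2 by 1.32 ± 0.21 (adjusted p = 0.0030) and IFIT5 by 1.12 ± 0.31 (adjusted p = 0.023). IFIT3 at -0.40 ± 0.23, CMPK2 at 0.25 ± 0.34 and RSAD2 at 1.48 ± 0.74 did not pass, and RSAD2 rests on 6 and 24 reads. The 3 of 6 calls stand beside 40.5% of all genes tested. IFIT5 did not pass when only the 4 control libraries were fitted (adjusted p = 0.10), nor without either RNASeq control (0.11 for both), either RNASeq miR-137 library (0.053 for both) or RIPSeq miR-137 replicate 1 (0.054). Without RIPSeq control replicate 2, IFIT3 also passed as lower, by 0.82. RSAD2 was then at 2.14, which sets 19 reads of 1 library against 3 and 3 in total RNA, while the library left out had 5, so nothing is read from it.

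After miR-137 in U251 none of the 6 genes passed, beside 24.8% of all genes, with estimates from -0.54 ± 0.30 for IFIT5 to 0.81 ± 0.30 for CMPK2. At an unadjusted p under 0.05 there were 3, beside 5479 of all 14210 genes. DESeq2 called 1, beside 2222 higher and 1999 lower. Fitted on the 4 miR-137 libraries alone, CMPK2 was higher in PABP-bound RNA by 0.82 ± 0.08, RSAD2 by 0.56 ± 0.08, IFIT1 by 0.53 ± 0.09 and IFIT2 by 0.43 ± 0.08, IFIT5 was lower by 0.54 ± 0.09, and these 5 passed (adjusted p from 4.8e-05 to 0.0018), as did 65.9% of all genes. IFIT3 was at 0.04 ± 0.09. With any 1 library left out of the fit of 8, the estimate ran from 0.78 to 0.88 for CMPK2 and from -0.59 to -0.46 for IFIT5.

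In U343 no gene passed in the fit of the 8 libraries in the controls, beside 33.9% of all genes, or after miR-137, beside 35.2%, and none had an unadjusted p under 0.05. DESeq2 called none in either. Without the library labelled RNASeq miR-137 replicate 1, IFIT3 was higher in PABP-bound RNA of the controls by 0.44 ± 0.10 (adjusted p = 0.0059), beside 45.9% of all genes. After miR-137 IFIT2 was then lower by 0.80 ± 0.14 (adjusted p = 0.0021), beside 38.4%, against 1 total RNA library. Without replicate 2 instead, all 6 were estimated higher in PABP-bound RNA after miR-137, from 2.66 for IFIT5 to 8.70 for RSAD2. The levels of IFIT2 after miR-137 were 2325 CPM in total RNA of replicate 2 and 1337 and 1423 in PABP-bound RNA.

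**Figure D5:**
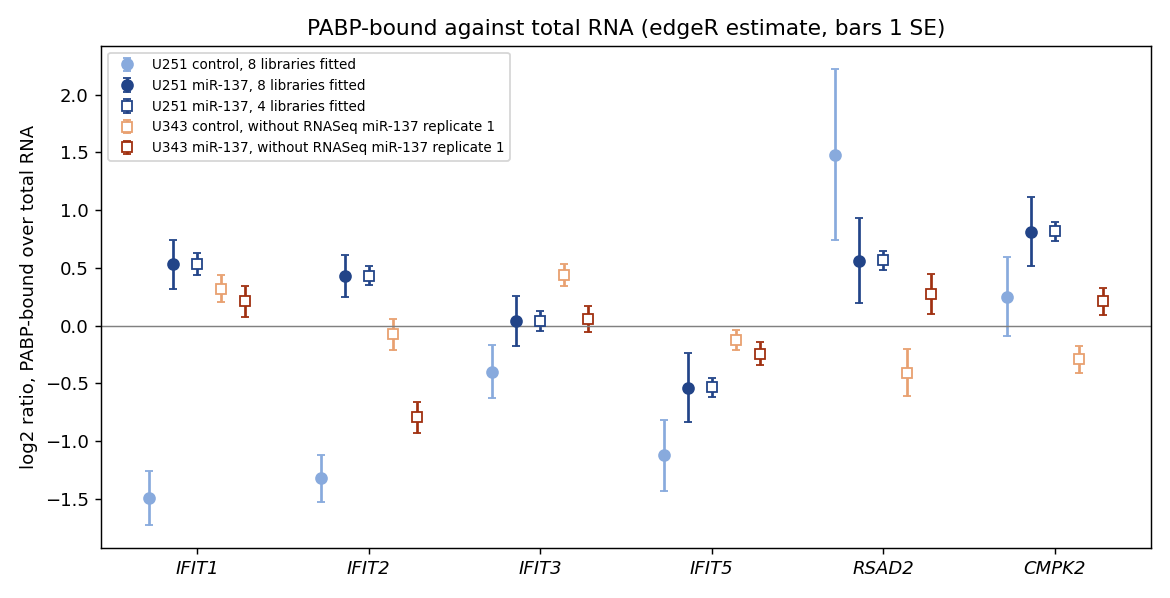
Log2 ratio of PABP-bound over total RNA for each gene, with bars of 1 standard error from edgeR. Filled circles use all libraries of the line, open dark blue squares the 4 U251 miR-137 libraries, and open orange and red squares the U343 libraries without RNASeq miR-137 replicate 1. IFIT1 and IFIT2 are at -1.49 and -1.32 in the U251 controls, and after miR-137 the U251 ratios of these genes are above 0.

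Between lines, the PABP ratio was compared by subtracting that of U251 from that of U343 in a fit of all 16 libraries. None of the 6 genes passed in the controls (17.9% of all genes did) or after miR-137 (12.4%), none had an unadjusted p under 0.05, and DESeq2 called none. Without the library labelled U343 RNASeq miR-137 replicate 1, the control ratio was estimated higher in U343 by 1.87 ± 0.29 for IFIT1. It was higher by 1.32 ± 0.24 for IFIT2 and by 0.90 ± 0.28 for IFIT3, with a median of 0.97 over the 6 genes. After miR-137 IFIT2 was then estimated lower in U343 by 1.28 ± 0.24, with a median of -0.36 over the 6 genes. Without replicate 2 instead, all 6 were estimated higher in U343 after miR-137, from 3.13 for IFIT5 to 8.06 for RSAD2.

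The level in control total RNA was then compared between lines, a contrast in which line and kit cannot be told apart. In the fit of 8 RNASeq libraries no gene passed, beside 76.8% of all genes, and none had an unadjusted p under 0.05. DESeq2 called 1, beside 6066 higher and 5523 lower of all 15550 genes. Fitted on the 4 control libraries alone, U343 was higher for RSAD2 by 4.32 ± 0.35 (adjusted p = 3.7e-06), IFIT3 by 1.62 ± 0.13, CMPK2 by 1.17 ± 0.23, IFIT2 by 1.00 ± 0.17 and IFIT1 by 0.44 ± 0.14 (adjusted p = 0.014), IFIT5 was lower by 1.32 ± 0.09, and all 6 passed, as did 84.8% of all genes. With any 1 library left out of the fit of 8, the same 5 genes were estimated higher in U343 and IFIT5 lower. The estimate ran from 4.24 to 4.42 for RSAD2 and from -1.35 to -1.27 for IFIT5. The median over all genes was 0.10 higher in U343.

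In total RNA after miR-137, IFIT5 was lower in U343 by 1.89 ± 0.70 (adjusted p = 0.034), the 1 call of 6 beside 76.2% of all genes, and it did not pass in DESeq2, when only the 4 libraries compared were fitted, or without any 1 of the 4 U251 libraries or U343 control replicate 1. Without the library labelled replicate 1, IFIT2 was higher in U343 by 3.09 ± 0.15 (adjusted p = 9.6e-11), RSAD2 by 1.10 ± 0.14 and IFIT3 by 0.73 ± 0.14, IFIT5 was lower by 1.06 ± 0.14, and these 4 passed, as did 77.3% of all genes. IFIT1 at 0.31 ± 0.16 and CMPK2 at -0.34 ± 0.16 did not. Without replicate 2 instead, all 6 were estimated lower in U343, from -3.99 for IFIT5 to -7.35 for RSAD2. The transfection differences were also set side by side. In RIPSeq the difference of U343 minus U251 was -2.26 ± 0.29 for IFIT1, -1.71 ± 0.28 for IFIT3, -1.60 ± 0.64 for RSAD2, -1.57 ± 0.37 for CMPK2, -0.44 ± 0.42 for IFIT5 and -0.37 ± 0.23 for IFIT2, as a description, beside a median of 0.11 over all genes.

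IFIT1B, the related gene beside IFIT1, was counted as well. It had 42 and 47 reads in U251 RNASeq after miR-137 and 4 and 0 in the controls, and 111 and 114 against 4 and 3 in U251 RIPSeq. In U343 RIPSeq it had 13 and 13 reads after miR-137 and 6 and 0 in the controls. For every 1000 reads of IFIT1 these were 2.63 and 2.60 in U251 RNASeq and 2.09 and 2.04 in U251 RIPSeq after miR-137, against 0.168 and 0.175 in U343 RIPSeq and 0.143 in U343 RNASeq replicate 2. The exact 95% intervals of the U251 miR-137 libraries, 1.68 or more at their lowest bound, lay above those of these U343 libraries, 0.299 at most. They cover counting error only, and line and kit cannot be told apart. In the U251 controls, on few IFIT1B reads, the ratios were 26.0 and 0 in RNASeq and 66.7 and 26.3 in RIPSeq. The authors' treatment of reads that fit several genes is not given in the sources used here, so whether such reads are IFIT1 reads was not tested.

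The genes next to the family did not all follow it. The 3 nearest listed genes on each side and IFIT1B, 13 in all, were tested between mimics in each experiment. In U251 RNASeq 5 of 9 tested were higher (FAS, CH25H, IFIT1B, SLC16A12 and ID2) and 1, SOX11, was lower (57.7% of all genes passed in either direction). In U251 RIPSeq 2 of 10 were higher (1.21% in either direction), with a median log2 fold change of 0.60 over those tested. This median was 0.29 without control replicate 1 and 0.23 without control replicate 2. In U343 RNASeq 0 of 8 passed in edgeR (20.0% in either direction) and 3 had an unadjusted p under 0.05. DESeq2 called 3 of these 8, beside 1958 higher and 2338 lower of all 15088 genes. The median log2 fold change of the 8 in edgeR was 0.17, and 0.30 without the library labelled miR-137 replicate 1. In U343 RIPSeq 5 of 9 were higher and 2 were lower (56.3%). CH25H, which makes an antiviral oxysterol and lies on the IFIT2 side of the cluster, rose by 2.60 ± 0.55 in U251 RNASeq (adjusted p = 0.0011, edgeR) to 1.08 and 1.85 CPM, and in U343 it had at most 0.111. LIPA, between CH25H and IFIT2, was at -0.03 ± 0.13 in U251 RNASeq (adjusted p = 0.86) and at 0.52 ± 0.15 in U343 RIPSeq (adjusted p = 0.020). PANK1, on the far side of IFIT5, was at 0.18 ± 0.15 in U251 RNASeq (adjusted p = 0.33), and RNF144A, next to RSAD2, was at -0.01 ± 0.13 (adjusted p = 0.96). Of all neighbours tested, IFIT1B had the largest change in U251 RNASeq, at 4.89 ± 0.54.

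By profile over the 16 libraries, measured as the root mean square difference of log2(CPM + 1) centred on each gene's mean from the mean profile of the 6 genes, the most alike other genes were ISG20 (0.69), LGALS9 (0.76), RTP4 (0.81), ISG15 (0.85), DDX58 (0.90), OAS1 (0.90), OAS3 (0.91) and OAS2 (0.91). The median gene stood at 3.11. The 6 genes themselves ranged from 0.45 for CMPK2 to 1.87 for IFIT5, so all 8 lay closer to the mean profile than IFIT5 and RSAD2 (1.40) did. ISG20, an exonuclease that degrades RNA, had 142 and 147 CPM in U251 RNASeq after miR-137 and 1.34 and 1.41 in the controls, and 3.98 and 133 in replicates 1 and 2 of U343 RNASeq miR-137 with controls at 2.44 and 3.70. LGALS9, which encodes galectin-9, had 0.776 in replicate 1 and 29.9 in replicate 2 there.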

How the data were processed

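RNASeq and RIPSeq libraries of U251 and U343 cells were analysed from the deposited counts. The authors used RMAP for alignment to hg18, took 1 interval for each RefSeq gene, and deposited the raw counts of 16 libraries. How reads that fit several genes were counted is not given in the sources used here. Counts were scaled by TMM and tested across all genes with edgeR 4.0.16 (quasi-likelihood, filterByExpr, Benjamini-Hochberg threshold 0.05) in R 4.3.3, and DESeq2 1.42.0, another normalization, other filters, a replicate block, other sets of libraries and leaving out each library were tried. CPM values (reads per 1000000) were computed on TMM-scaled totals over all 16 libraries. Exact intervals came from SciPy 1.17.1. The fits were tested on simulated data. The members and lists were chosen with earlier results of these data known. Named genes are the 6 genes, IFIT1B, the neighbours on either side, the pathway list by counts with its extremes, the 8 most similar profiles and, as a check of transfection, CDK6. IRF7, IRF9, USP18, SOCS1, MAVS, IFNAR1, MX1 and IL29 were named after their values were seen. One gene of the pathway list is not reported here by name.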

Additional observations from a re-analysis of the deposited data

How the results depend on the processing

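Of 761 alternative values of single genes in the tested comparisons, 661 kept their direction and side of the threshold, 68 gained a call, 13 lost one and 19 changed sign. Of 396 in the contrast that chose the genes, which carry no test, 361 moved by less than their standard error, 29 by more and 6 changed sign. The cause was not tested. Fisher's exact test between single libraries gives calls and no fold change, so it is not given for that contrast. Without 1 library the median estimate between mimics, over the 6 genes and on the log2 scale, ran from 6.17 to 6.52 in U251 RNASeq, from 7.27 to 7.97 in U251 RIPSeq and from -0.35 to 6.13 in U343 RNASeq. DESeq2 called 1 of the 6 genes higher in PABP-bound RNA of U251 after miR-137, beside 2222 of all 14210 genes. It called 1 higher in U343 than in U251 control total RNA, beside 6066 of 15550. In U343 against U251 total RNA after miR-137 it called 0 lower, beside 5430 of 15550. There the 4 libraries alone gave 0 lower as well, beside 5116 of 15132. The 4 libraries alone gave 4 higher and 1 lower for PABP in U251 after miR-137, beside 4427 and 4569 of all 13655 genes. For PABP in the U343 controls such a fit gave 2 higher, beside 3625 of 14878. For U343 against U251 controls it gave 5 higher and 1 lower, beside 6641 and 5902 of 14787. Leaving out 1 library at a time gave, for PABP, 0 to 1 higher in the U251 controls, 0 to 4 higher and 0 to 1 lower in U251 after miR-137, 0 to 2 higher in the U343 controls, and 0 to 6 higher and 0 to 1 lower in U343 after miR-137. For U343 against U251 it gave 0 to 5 higher and 0 to 1 lower in the controls, and 0 to 3 higher and 0 to 6 lower after miR-137. For the difference of the PABP ratio between lines it gave 0 to 3 higher in the controls, and 0 to 6 higher and 0 to 1 lower after miR-137. The median difference of the transfection change between lines in RNASeq was -1.51.

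Signs changed under the alternatives below, each given as its lowest and highest log2 value when 1 library was left out. Leaving out the U343 RNASeq miR-137 replicate 2 gave the lowest and replicate 1 the highest in the change between mimics in U343 RNASeq, which ran from -0.48 to 7.05 for IFIT1, from -1.61 to 4.93 for IFIT3, from -0.21 to 2.71 for IFIT5 and from -0.48 to 5.21 for CMPK2. The same held for U343 against U251 after miR-137, from -7.23 to 0.31 for IFIT1, -4.64 to 3.09 for IFIT2, -5.81 to 0.73 for IFIT3 and -7.35 to 1.10 for RSAD2, and for the difference of the transfection change in RNASeq, from -5.64 to 2.08 for IFIT2 and -2.68 to 0.25 for IFIT5, with a median over the 6 genes from -7.33 to -0.52. The reverse held for PABP in U343 after miR-137, from -0.80 to 6.91 for IFIT2 and -0.24 to 2.66 for IFIT5, and for the difference of the PABP ratio between lines after miR-137, from -0.37 to 7.12 for IFIT1, -1.28 to 6.41 for IFIT2, -0.0353 to 6.46 for IFIT3, -0.35 to 8.06 for RSAD2 and -0.66 to 4.99 for CMPK2. In the controls of U251 the PABP ratio of CMPK2 ran from -0.39 (without RIPSeq control replicate 2) to 0.59 and was -0.13 without RNASeq control replicate 1, and its difference between lines ran from -0.87 to 0.10. The PABP ratio of IFIT3 in U251 after miR-137 ran from -0.0296 (without RNASeq miR-137 replicate 1) to 0.14 and was -0.0164 with upper-quartile factors, and that of IFIT2 in the U343 controls ran from -0.20 to 0.0744 (without RIPSeq control replicate 2), with 0.0288 without RNASeq control replicate 1.

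Deviations of same-numbered libraries correlated between -0.18 and 0.24, which does not settle whether replicate numbers pair the libraries. With the replicate block RSAD2 in U343 against U251 after miR-137 was -0.93 in place of 0.10, with no call in either, and the block moved no count of calls among the 6 genes by over 1.5 times. The median change of the 6 genes in U343 RNASeq was 2.88 with the block in place of 5.15. Over all genes the block moved the calls of U251 RIPSeq between mimics from 133 higher and 37 lower to 529 and 273, and DESeq2 called 589 and 534 there. Calls of U343 RIPSeq went from 4234 higher and 4130 lower to 4858 and 4787 with the block. The crossed pairing in the 4 U343 control libraries was added after the data were seen. It called 2 of the 6 genes higher and 1 lower in PABP-bound RNA, beside 4018 and 4051 of all 14878 genes. Of the 8 most similar genes, 6 were shared with a pseudocount of 0.5 and 7 with group means. The depth limits RSAD2 most, with 6 reads in the U251 RNASeq controls.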
